A study of Mus musculus with 6 samples.

Results

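The genes described here are *Hras*, *Nras*, *Rras*, *Rras2* and *Mras*, 5 members of the Ras family of small GTPases. They were taken by gene name from the 53657 names in the count tables of 6 mice, and all 5 were found under their own name in every table. All 5 also passed the filter on low counts, which left 19656 genes for testing. The share of *Hras* given below is a share among these 5 genes only. A list of 19 other Ras-like GTPases is described further below and does not enter this share. Any further members of the family were not analysed here.

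The cells came from 3 adult control mice (WT) and 3 adult mutant mice (MUT), each a separate sample. All 6 carried *Gfra1-creERT2*, a tamoxifen-inducible Cre recombinase driven by the *Gfra1* promoter, and *tdTom* fl/-, a reporter that turns labelled cells red after Cre has acted, and all 6 had received repeated courses of tamoxifen. The MUT mice also carried *FR-Hras* G12V fl/-, a flox-and-replace allele in which Cre removes a wild-type *Hras* copy flanked by loxP sites so that the *Hras* G12V copy behind it is expressed from the endogenous promoter. The WT mice lacked this allele, and all of the mice were of a mixed genetic background. RNA was taken 3 months after tamoxifen from sorted tdTomato+ cells bright for the surface protein MCAM, a population enriched for undifferentiated spermatogonia (A_undiff). The mutation is present on 1 allele and in those cells where Cre acted, so a MUT sample may be a mixture. From variant calling in the MUT samples, the paper inferred that most of the sorted cells carried the mutation. The counts used here are summed over a whole gene and do not separate the wild-type from the mutant transcript.

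Ras proteins are molecular switches that are active when bound to GTP. Exchange factors load them with GTP, GTPase-activating proteins help them hydrolyse it, and lipid groups attached to the carboxyl end hold them at membranes. HRAS and NRAS are classical Ras proteins that signal through RAF kinases to MEK and ERK. RRAS, RRAS2 (also known as TC21) and MRAS form the R-Ras branch: RRAS is known for its part in integrin-mediated adhesion, RRAS2 for a transforming activity close to that of the classical proteins, and MRAS for binding SHOC2 and protein phosphatase 1 in a complex that removes an inhibitory phosphate from RAF. In A_undiff, the growth factor GDNF acts through the receptor pair GFRA1 and RET, and Ras proteins are among the switches downstream of RET.

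The stretch of coding sequence that holds the mutated codon is shown for *Hras* and the 3 R-Ras genes, because it is the site at which the study altered *Hras* and because it shows how close the family members are. It encodes the nucleotide-binding loop, and the capitals mark the glycine codon aligned to codon 12 of *Hras*. The sequences are those of GENCODE vM21 transcripts, 5′ to 3′ on the strand of each gene:
Hras: ggcgctGGAggcgtgggaaagagt
Rras: ggcggcGGCggcgtgggcaagagc
Rras2: ggcggtGGCggcgtgggcaagtcg
Mras: ggagatGGTggtgtgggcaagagt
In *Hras* the loop covers codons 10 to 17 and lies at chr7:141192890-141192913 of GRCm38 on the minus strand, in exon 2 of 6. The G12V mutation is G35T in the coding sequence, counted from 1 at the start codon with the reference base first, and it turns the GGA codon into GTA at position 141192906 of chromosome 7. The aligned glycine is codon 38 in *Rras*, codon 23 in *Rras2* and codon 22 in *Mras*. In these 4 genes the codon encodes glycine, as GGA in *Hras*, GGT in *Mras*, and GGC in *Rras* and *Rras2*.

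The effector loop, the part of the protein that touches downstream partners such as RAF once GTP is bound, is shown for the same reason, with its threonine codon in capitals. In *Hras* this stretch is divided between exons 2 and 3, while in the 3 R-Ras genes it lies within exon 2:
Hras: tatgatcccACTatagaggactcctac
Rras: tatgatcccACCattgaagattcctac
Rras2: tatgatccaACCattgaagactcatac
Mras: tacgaccccACCattgaagactcctac
*Hras* shared 23 bases of this loop with *Rras* and 22 each with *Rras2* and *Mras*. The last codons differ more. They are shown because they hold a cysteine codon (capitals) to which a lipid is attached, with other cysteine codons left unmarked:
Hras: tgcaaaTGTgtgctgtcctga
Rras: tgtcccTGTgtcctgctgtag
Rras2: tgccatTGTgtcattttctaa
Mras: ctgcagTGTgtcatcttgtga

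Over the whole coding sequence *Hras* was closest to *Nras*, with 75.1% identical bases over 570 aligned positions. *Rras* and *Rras2* shared 68.6%, and the remaining pairs shared between 60.9% and 65.1%. The coding sequences were 570 bases in *Hras* and *Nras*, 657 in *Rras*, 615 in *Rras2* and 627 in *Mras*. Despite this kinship few exact stretches of 50 bases were shared with other genes. Every stretch of 50 bases in the main transcript was searched for in the transcripts of all other gene names. None of those of *Hras*, *Rras*, *Rras2* or *Mras* was found elsewhere. For *Nras*, 38 of 4421 (0.860%) were found, under 160 other gene names. Matches with mismatches were not searched for, so misassignment of such reads was not tested. No exon base of the 5 genes overlapped an exon of another gene name, although the counting ignored strand.

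In GRCm38, 3 of the genes lie on chromosome 7: *Hras* (ENSMUSG00000025499.18) at 141189105 to 141194005 on the minus strand, *Rras* (ENSMUSG00000038387.9) at 45017961 to 45021647 on the plus strand, and *Rras2* (ENSMUSG00000055723.6) at 114046782 to 114117781 on the minus strand. *Nras* (ENSMUSG00000027852.14) lies on chromosome 3 at 103058285 to 103067914 on the plus strand. *Mras* (ENSMUSG00000032470.17) lies on chromosome 9 at 99385420 to 99437381 on the minus strand.

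The libraries held between 22729292 and 23550433 counts on genes. Replicates of the same group differed by more than sampling noise, with a chi-square per degree of freedom between 4.67 and 27.6. The pairs with WT replicate 3 gave the upper WT values, 20.5 and 27.6. Likewise the pairs with MUT replicate 3 gave the upper MUT values, 11.1 and 9.75, against 4.67 for MUT replicates 1 and 2. Levels are given as CPM, counts scaled to library size and corrected for library composition by the TMM method. The summed level of 8 markers of undifferentiated spermatogonia, among them *Gfra1*, *Ret* and *Zbtb16*, was between 1367 and 1825 CPM in WT and between 1607 and 1879 CPM in MUT, with no marker at 0. Markers of other testis cells were present as well. The 6 Leydig cell markers summed to between 13.2 and 21.1 CPM in WT and between 12.9 and 67.3 CPM in MUT, and all 6 were highest in MUT replicate 3. The 5 spermatid markers, among them the protamines *Prm1* and *Prm2*, summed to 953, 695 and 1197 CPM in WT replicates 1, 2 and 3. In MUT replicates 1, 2 and 3 they summed to 481, 518 and 911 CPM. MUT replicates 1 and 2 thus lay below every WT sample, and MUT replicate 3 lay inside the WT range. The 5 macrophage markers summed to 446, 417 and 569 CPM in WT replicates 1, 2 and 3. In the MUT replicates, in the same order, they summed to 342, 396 and 448 CPM, so MUT replicates 1 and 2 again lay below every WT sample. Over both groups the sums were between 352 and 479 CPM for 5 spermatocyte markers and between 43.8 and 58.3 CPM for 5 endothelial markers. They were between 26.1 and 37.8 CPM for 7 Sertoli cell markers and between 7.47 and 11.9 CPM for 4 peritubular myoid markers. The only marker under 1 CPM in all 6 samples was the Sertoli cell gene *Amh*. The part of these cells in the levels of the Ras genes was not tested, and in bulk samples a change in the share of cells that express a gene and a change in its RNA per cell cannot be told apart.

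*Hras*, the gene carrying the engineered allele, was expressed in both groups. It had 1300, 1407 and 1542 counts in WT replicates 1, 2 and 3 and 1600, 1594 and 1426 counts in MUT replicates 1, 2 and 3. On the same TMM-corrected CPM scale these were 56.8, 60.1 and 65.2 in WT and 69.9, 69.1 and 61.0 in MUT. MUT replicates 1 and 2 lay above all WT samples, whereas MUT replicate 3 lay between WT replicates 2 and 3, so the groups overlapped. MUT differed from WT by 0.14 on the log2 scale, with a standard error of 0.083, a fold of 1.10 with a 95% confidence interval from 0.964 to 1.25, and it did not pass the test (adjusted p = 0.998 in the quasi-likelihood test of edgeR, adjusted by Benjamini-Hochberg over all 19656 genes). Without WT replicate 3 the log2 fold change of *Hras* was 0.19 (unadjusted p = 0.0466, adjusted p = 0.999 from edgeR), and without MUT replicate 3 it was 0.20 (unadjusted p = 0.0484, adjusted p = 0.572 from edgeR). Leaving out any of the other 4 samples lowered it, to 0.081 without WT replicate 1 (unadjusted p = 0.39 from edgeR), 0.093 without MUT replicate 1, 0.095 without MUT replicate 2 and 0.12 without WT replicate 2.

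*Nras*, the closest to *Hras* in coding sequence among these genes, was the member with the most counts. Its level was 109, 120 and 128 CPM in WT replicates 1, 2 and 3 and 120, 126 and 119 CPM in MUT replicates 1, 2 and 3. The MUT samples all lay within the WT range. MUT differed from WT by 0.03 on the log2 scale (standard error 0.076; adjusted p = 0.998 in edgeR), and the 95% confidence interval of the fold ran from 0.906 to 1.15. Its sign rested on single samples, since without WT replicate 1 the log2 fold change was -0.04 and without MUT replicate 2 it was -0.0063.

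*Rras* was the steadiest of the 5 genes. Its level was 96.3, 90.9 and 97.6 CPM in WT replicates 1, 2 and 3 and 94.9, 94.8 and 90.4 CPM in MUT replicates 1, 2 and 3, so that all 6 mice lay within a narrow band and the groups overlapped. Its log2 fold change of -0.02 had a standard error of 0.063 (adjusted p = 0.998 in edgeR), with an interval of the fold from 0.890 to 1.09. It turned to 0.00067 without MUT replicate 3.

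In *Rras2*, as in *Hras*, *Nras* and *Rras*, replicate 3 was the lowest of the MUT samples. Its level was 74.9, 80.9 and 79.6 CPM in WT replicates 1, 2 and 3 and 85.7, 84.6 and 78.7 CPM in MUT replicates 1, 2 and 3. MUT replicates 1 and 2 lay above every WT sample, and MUT replicate 3 lay inside the WT range. With a log2 fold change of 0.08 and a standard error of 0.067 it did not pass the test (adjusted p = 0.998 in edgeR), and the interval of the fold ran from 0.951 to 1.18. Its log2 fold change ranged from 0.040 without WT replicate 1 to 0.12 without MUT replicate 3, and it was 0.051 without MUT replicate 1 and 0.054 without MUT replicate 2.

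*Mras* was the least abundant member. It had 160, 173 and 210 counts in WT replicates 1, 2 and 3 and 148, 152 and 172 counts in MUT replicates 1, 2 and 3. In CPM this was 6.99, 7.39 and 8.88 in WT and 6.47, 6.59 and 7.35 in MUT. MUT replicates 1 and 2 lay below every WT sample and MUT replicate 3 did not. Its log2 fold change of -0.19 had a standard error of 0.15 (adjusted p = 0.998 in edgeR), and at this depth the interval of the fold was the widest of the 5, from 0.691 to 1.11. The log2 fold change of *Mras* was -0.080 without WT replicate 3, the highest of the 6 samples, and -0.27 without WT replicate 1.

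**Figure D1:**
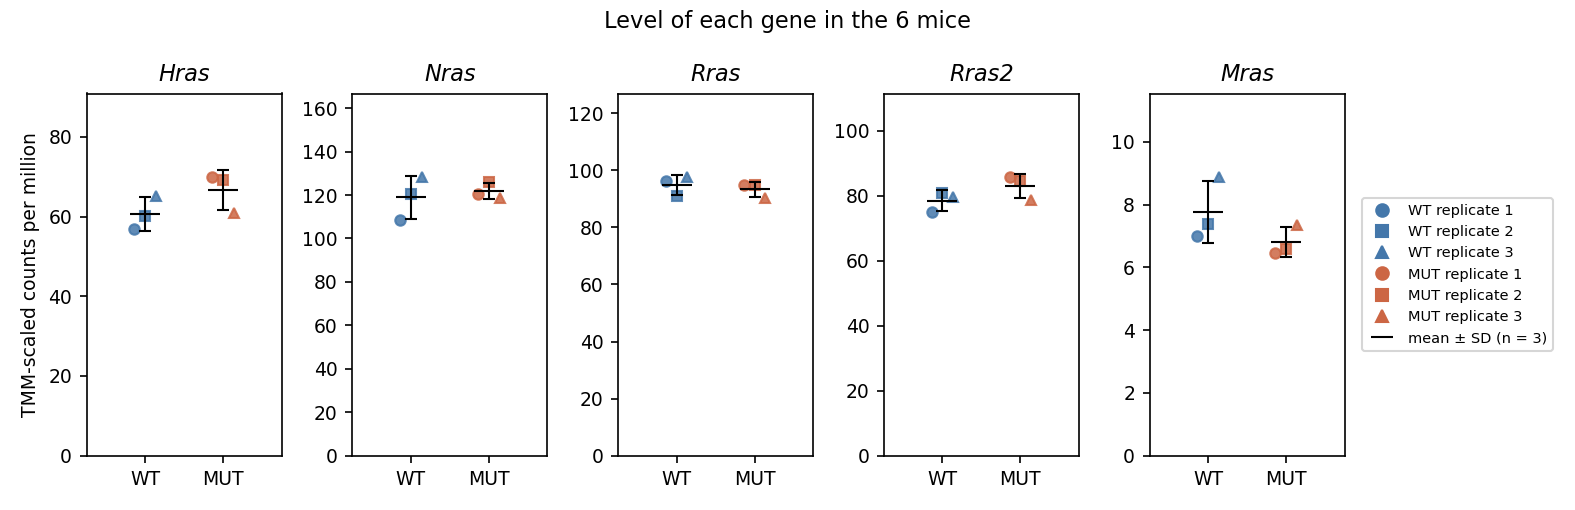
Level of each of the 5 genes in TMM-scaled CPM (vertical axes, each from 0 and on its own scale) in the 3 WT mice (blue) and the 3 MUT mice (orange), with the mean and SD of each group in black and the replicate number given by the marker shape. In every panel the groups overlap, and for *Hras* MUT replicate 3, at 61.0, lies below WT replicate 3, at 65.2.

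None of the 5 genes passed the adjusted p of 0.1 in edgeR, and none passed an unadjusted p of 0.05. Over all genes tested, 0.0102% were called in either direction, and 2.78% had an unadjusted p under 0.05. DESeq2 called none of the 5 either. Nor was any of the 5 separated between groups, whereas over all genes 4.69% had every MUT sample above every WT sample and 3% had every MUT sample below. A result of 0 of 5 is therefore near the background in each of these counts. The intervals bound the size of a change: the upper limits of the fold were 1.25 for *Hras* and between 1.09 and 1.18 for the other 4 genes, and the lower limits were 0.691 for *Mras* and between 0.890 and 0.964 for the other 4.

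For the 4 abundant genes the spread between mice was above counting error in both groups, though 3 mice per group give only a rough estimate of it. For *Hras* the coefficient of variation was 6.93% in WT and 7.45% in MUT, against 2.66% and 2.55% from counting alone. For *Nras* it was 8.31% in WT and 3.02% in MUT, against 1.90% and 1.89%. For *Rras2* it was 4.06% in WT and 4.55% in MUT, against 2.34% and 2.28%. For *Rras* it was 3.79% in WT and 2.76% in MUT, against 2.13% and 2.15%, so the excess in MUT was small. For *Mras*, with under 211 counts in a sample, it was 12.8% in WT and 7.03% in MUT, against 7.43% and 7.97%. The spread of *Mras* was thus above counting error in WT but not in MUT.

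With samples of equal replicate number taken as pairs, the differences within pairs were not alike. *Hras* was higher in MUT by 0.30 on the log2 scale in pair 1 and by 0.20 in pair 2, while the difference was -0.10 in pair 3. *Rras2* differed by 0.20, 0.06 and -0.02 in the same order, and *Nras* by 0.15, 0.06 and -0.11. *Mras* was the only one of the 5 with the same sign in all 3 pairs, -0.11, -0.17 and -0.27. With the replicate number as a term in the fit, the adjusted p-values from edgeR lay between 0.918 for *Hras* and 0.990 for *Rras*.

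**Figure D2:**
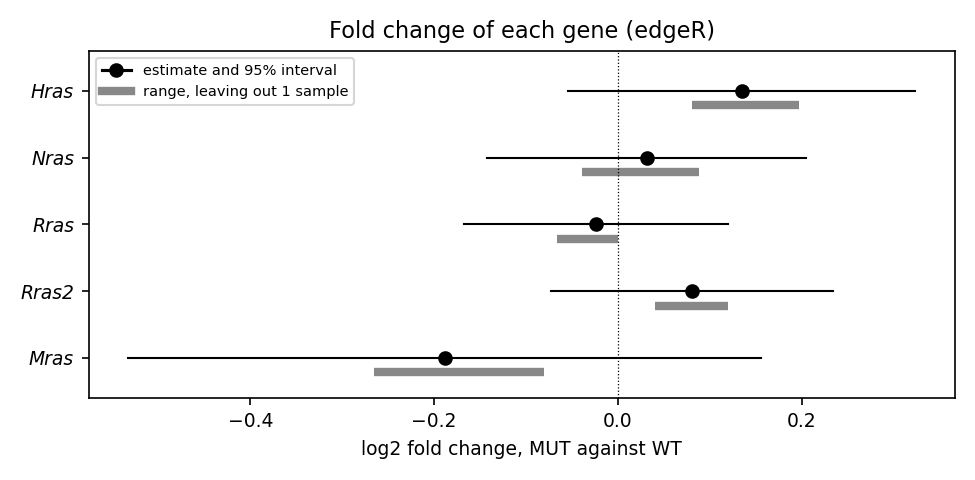
Log2 fold change of MUT against WT for each gene from edgeR (horizontal axis; points, with black bars for the 95% confidence interval from 3 mice per group), and the range of the estimate when each of the 6 samples is left out in turn (grey bars). All 5 intervals include 0, and the grey bars of *Nras* and *Rras* reach across 0.

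To compare levels between genes, the CPM values were divided by the length of each gene in kilobases, here the union of all its annotated exons as given in the count tables: 3733 bases for *Hras*, 5331 for *Nras*, 1121 for *Rras*, 3554 for *Rras2* and 5134 for *Mras*. On this scale of CPM per kilobase *Rras* was highest, at 84.0 ± 2.61 (SD, n = 6 mice), a level above 98.1% of the genes tested. *Rras2* followed with 22.7 ± 1.12 and *Nras* with 22.6 ± 1.28, above 85.8% and 85.7% of the genes tested. *Hras* came next with 17.1 ± 1.41, above 80.6% of the genes, and *Mras* was last with 1.42 ± 0.169, above 32.1%.

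Neighbours in this order, which came from the same 6 samples, were compared by the log2 ratio of their levels within each mouse. The p-values therefore show only how far the direction of each log2 ratio held across the mice at this gene length. *Rras* exceeded *Rras2* by 3.70-fold, in 6 of 6 samples (exact two-sided sign-flip permutation test, p = 0.03125, adjusted p = 0.0417 over the 4 pairs of neighbours). *Rras2* and *Nras* did not differ beyond their spread, with a ratio of 1.01 and *Rras2* higher in 4 of 6 samples (exact permutation p = 0.6875, adjusted p = 0.6875). *Nras* exceeded *Hras* by 1.33-fold and *Hras* exceeded *Mras* by 12.1-fold, each in 6 of 6 samples (exact permutation p = 0.03125, adjusted p = 0.0417). The value 0.03125 is the smallest that 6 samples allow.

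These ratios depend on the length taken for each gene, because the untranslated ends of the annotated transcripts differ widely. The longest annotated transcripts are 2828 bases for *Hras*, 4470 for *Nras*, 995 for *Rras*, 3534 for *Rras2* and 4701 for *Mras*. With these lengths the order was *Rras*, *Nras*, *Rras2*, *Hras* and *Mras*, and *Rras2* and *Hras* were no longer apart, with a ratio of 1.02 and *Rras2* higher in 3 of 6 samples (exact permutation p = 0.40625). With the shortest principal transcript of each gene, 1199 bases for *Hras*, 831 for *Nras*, 995 for *Rras*, 2275 for *Rras2* and 1167 for *Mras*, *Nras* became the highest at 145 CPM per kilobase, ahead of *Rras* at 94.6, *Hras* at 53.1, *Rras2* at 35.5 and *Mras* at 6.24. *Mras* was the lowest of the 5 under each length. Which transcripts these cells used was not analysed here, so the ranks of the other 4 genes are bound to the length chosen.

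**Figure D3:**
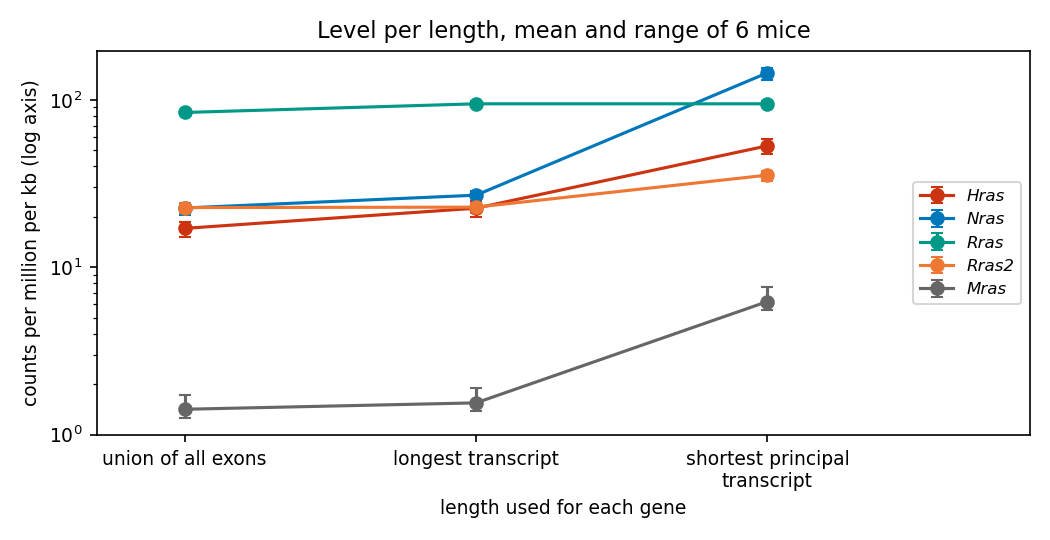
Level of each gene in CPM per kilobase (vertical log axis; mean and range over the 6 mice) with 3 choices of gene length (horizontal axis); lines join the values of 1 gene and have no further meaning. *Rras* is highest with the first and second choices, *Nras* with the third, and *Mras* is lowest with all of them.

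The share of *Hras* in the summed level of the 5 genes asks whether the engineered gene gained or lost ground against its relatives, and library size drops out of it. Per exon length the share was 10.6%, 11.2% and 11.4% in WT replicates 1, 2 and 3 and 12.4%, 12.2% and 11.4% in MUT replicates 1, 2 and 3. MUT replicates 1 and 2 lay above all WT samples, and MUT replicate 3 and WT replicate 3 nearly coincided. On average *Hras* held 11.1% ± 0.442 in WT against 12.0% ± 0.502 in MUT (SD, n = 3 each), a difference of 0.937 percentage points (p = 0.1 by an exact permutation test, two-sided, which can give no smaller p with 3 against 3 samples). The design therefore could not have passed 0.05, whatever the values. With the counts taken without a length the MUT replicate 3 value, 17.1%, fell below WT replicate 3, 17.2%, and the exact permutation p was 0.2. Within the 3 pairs of equal replicate number an exact sign-flip permutation test gave p = 0.25 per exon length, the smallest it can give. For the counts without a length the same sign-flip permutation test gave p = 0.5.

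The other shares are given as a description. *Rras* made up 57.7% ± 1.79 (SD, n = 3) of the summed level per exon length in WT and 56.0% ± 0.382 in MUT. *Nras* made up 15.2% ± 0.906 in WT and 15.4% ± 0.378 in MUT, and *Rras2* 15.0% ± 0.672 in WT and 15.7% ± 0.215 in MUT. *Mras* contributed 1.03% ± 0.0954 in WT and 0.894% ± 0.0946 in MUT. Summed over the 5 genes, the level was between 144 and 153 CPM per kilobase in WT and between 143 and 152 in MUT, so the ranges of the groups overlapped almost entirely.

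**Figure D4:**
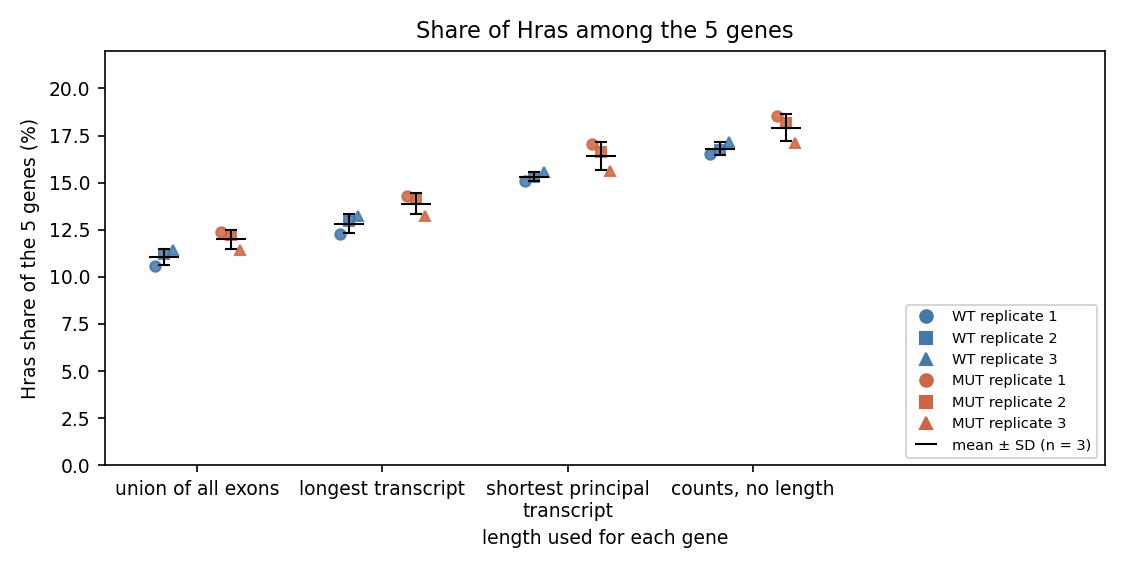
Share of *Hras* in the summed level of the 5 genes, in percent (vertical axis from 0), in each of the 3 WT (blue) and 3 MUT (orange) mice, with the mean and SD in black, for 3 choices of gene length and for counts without a length (horizontal axis). MUT replicates 1 and 2 lie above the WT mice with each choice, while MUT replicate 3 lies at or beside WT replicate 3.

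The ratio of *Hras* to *Nras* counts, which compares the classical pair within each mouse, was 0.523, 0.499 and 0.508 in WT replicates 1, 2 and 3 and 0.581, 0.549 and 0.513 in MUT replicates 1, 2 and 3. MUT replicates 1 and 2 exceeded all WT values here too, and MUT replicate 3 lay within the WT range.

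The genes whose pattern over the 6 samples was most like that of *Hras* were sought among 10579 genes with a mean of at least 10 CPM, by the root mean square distance between deviations from each gene's own mean log2 CPM. The nearest was *Boll*, which encodes a germ cell RNA-binding protein of the DAZ family, at a distance of 0.018. *Prss36*, which encodes a serine protease, followed at 0.022, and *Sf3b6*, which encodes a splicing factor subunit, at 0.023. The deviations of *Hras* itself were -0.16, -0.08 and 0.04 in WT replicates 1, 2 and 3 and 0.14, 0.12 and -0.06 in MUT replicates 1, 2 and 3. With 6 samples and so many genes compared, close matches are bound to be found, and no test was made.

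The genes around the Ras proteins were examined in 8 lists with 84 genes, of which 83 passed the filter, all but the Ras-like GTPase gene *Rit2*. None of the 83 was called by edgeR at an adjusted p of 0.1, and none was called by DESeq2 or with the replicate number as a term. In edgeR 3 of the 83 (3.61%) had an unadjusted p under 0.05, against 2.78% of all genes tested. Their median log2 fold change was 0.01, against 0.0066 over all genes. Every MUT sample lay above every WT sample for 3 of the 83 (3.61%) and below for 1 (1.20%), against 4.69% and 3% over all genes.

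Among the 8 exchange factors, which load Ras with GTP, 3 log2 fold changes were positive and 5 negative, with a median of -0.09. *Sos1*, which couples receptor tyrosine kinases to Ras, had the highest level of the list per exon length (7.94 CPM per kilobase) and was at 68.4 ± 8.96 CPM in WT and 73.2 ± 2.88 CPM in MUT (SD, n = 3 each). *Rasgrp1*, a diacylglycerol-responsive exchange factor, had the lowest p of the list. Its level was 6.29, 5.34 and 5.33 CPM in WT replicates 1, 2 and 3 and 6.99, 7.98 and 7.61 CPM in MUT replicates 1, 2 and 3, so the groups did not overlap. For *Rasgrp1* a log2 fold change of 0.41 with a standard error of 0.147 did not pass the adjusted threshold (unadjusted p = 0.0214, adjusted p = 0.998 from edgeR), and it ranged from 0.36 to 0.49 when each sample was left out.

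Of the 10 GTPase-activating proteins, which turn Ras off, 7 log2 fold changes were positive and 3 negative, with a median of 0.05. *Rasa3* had the highest level per exon length, 22.4 CPM per kilobase, and stood at 114 ± 12.8 CPM in WT and 114 ± 10.2 CPM in MUT (SD, n = 3 each). *Rasal3* had the lowest p, with 11.6 ± 1.97 CPM in WT and 9.39 ± 0.910 CPM in MUT (unadjusted p = 0.0856, adjusted p = 0.998 from edgeR), and its groups overlapped. *Rasal1*, named after its values were seen, was the other member of the lists besides *Rasgrp1* and *Diras1* with all MUT samples above all WT samples, at a log2 fold change of 0.21.

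The 13 genes for lipid modification and trafficking of Ras include the subunits of farnesyltransferase and the enzymes that remove palmitate. Of their log2 fold changes 5 were positive and 8 negative, all between -0.19 and 0.09, and the median was -0.04. *Abhd17a*, a depalmitoylase, had the highest level per exon length, 42.7 CPM per kilobase, and *Lypla2*, an acyl-protein thioesterase, had the lowest p of the list (log2 fold change -0.10, unadjusted p = 0.235, adjusted p = 0.998 from edgeR), with a log2 fold change of -0.050 without WT replicate 3 and -0.15 without MUT replicate 1.

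Among 14 direct effectors, the proteins that bind GTP-loaded Ras, 10 log2 fold changes were positive and 4 negative, with a median of 0.06. *Ralgds*, which activates the Ral GTPases, was the highest per exon length at 38.3 CPM per kilobase and stood at 225 ± 24.5 CPM in WT and 247 ± 6.15 CPM in MUT (SD, n = 3 each). *Plce1*, a phospholipase C, had the lowest p (log2 fold change 0.31, unadjusted p = 0.155, adjusted p = 0.998 from edgeR), and its log2 fold change was 0.14 without WT replicate 2 and 0.45 without WT replicate 1. The 4 partners of MRAS in the RAF-activating complex gave a median of 0.0035. The phosphatase subunit *Ppp1ca* was by far the highest of these at 312 CPM per kilobase, against 1.42 for *Mras* itself, and *Ppp1cb* had the lowest p (log2 fold change -0.08, unadjusted p = 0.247, adjusted p = 0.998 from edgeR).

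The 6 genes for MEK and ERK kinases and their KSR scaffolds gave log2 fold changes between -0.06 and 0.16, with a median of 0.03. *Mapk3*, which encodes ERK1, was highest per exon length at 66.2 CPM per kilobase and stood at 148 ± 5.47 CPM in WT and 151 ± 3.34 CPM in MUT (SD, n = 3 each). *Ksr1* had the lowest p (log2 fold change 0.16, unadjusted p = 0.271, adjusted p = 0.998 from edgeR), but its log2 fold change was 0.0020 without WT replicate 3 and 0.24 without WT replicate 1. The 10 genes of the transcriptional output of the MAPK pathway had the lowest median of the 8 lists, -0.17, with 3 positive and 7 negative values. *Dusp6*, an ERK phosphatase induced by ERK activity, had both the highest level per exon length of that list (38.4 CPM per kilobase) and its lowest p. *Dusp6* was at 137, 127 and 128 CPM in WT replicates 1, 2 and 3 and at 127, 99.2 and 104 CPM in MUT replicates 1, 2 and 3. MUT replicates 2 and 3 lay below all WT samples, and MUT replicate 1 lay among them. With a log2 fold change of -0.25 and a standard error of 0.098, *Dusp6* did not pass the test (unadjusted p = 0.034, adjusted p = 0.998 from edgeR), and the log2 fold change ranged from -0.37 without MUT replicate 1 to -0.19 without MUT replicate 2.

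The list of 19 other Ras-like GTPases showed 11 positive and 7 negative log2 fold changes among its 18 tested genes, with a median of 0.02. *Rap1b*, a GTPase of cell adhesion, was highest at 59.2 CPM per kilobase, between *Rras* and the other 4 genes on the same scale, and stood at 175 ± 12.6 CPM in WT and 167 ± 5.06 CPM in MUT (SD, n = 3 each). *Diras1* had the lowest p of all 83 genes. Its level was 3.67, 2.52 and 3.17 CPM in WT replicates 1, 2 and 3 and 4.76, 4.34 and 4.83 CPM in MUT replicates 1, 2 and 3, without overlap, and its log2 fold change of 0.57 had a standard error of 0.189 (unadjusted p = 0.0151, adjusted p = 0.998 from edgeR). *Diras2*, named after its values were seen, was the single gene with all MUT samples below all WT samples, at a log2 fold change of -0.27.

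**Figure D5:**
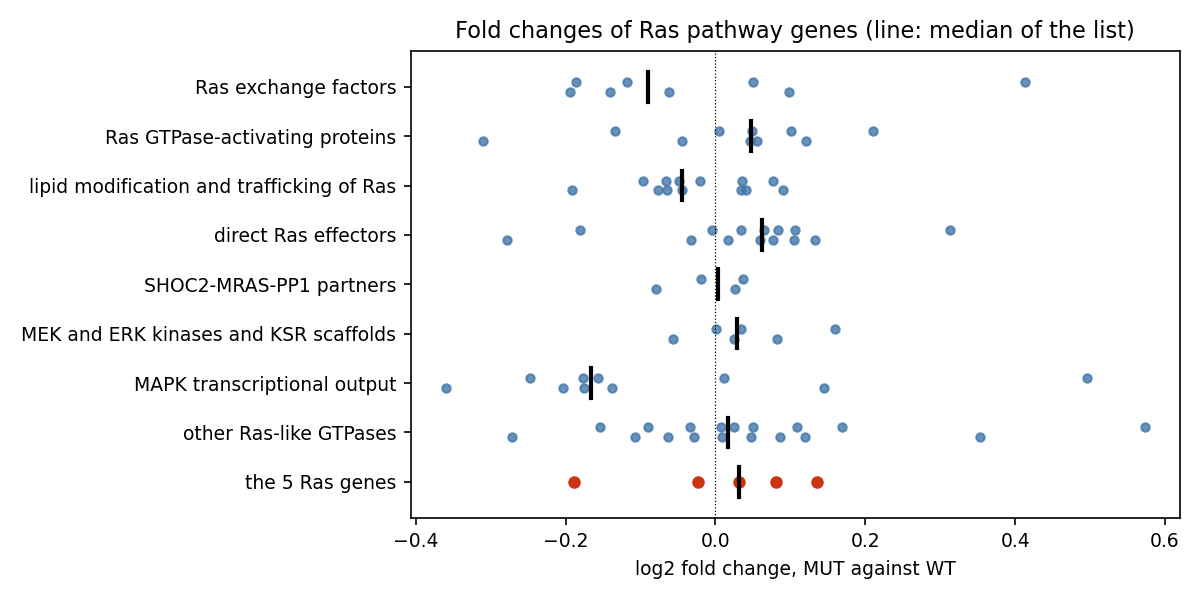
Log2 fold change of MUT against WT from edgeR (horizontal axis) for each tested gene of 8 lists of Ras pathway genes (blue points) and for the 5 Ras genes (red points); black lines are the medians. The points of each list lie on both sides of 0, the medians run from -0.17 to 0.06, and none of the points passed an adjusted p of 0.1.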

How the data were processed

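RNA-seq was performed on A_undiff from 3 WT and 3 MUT mice. The values deposited by the authors are raw counts: 1 table a sample lists the fragments assigned to every gene name by featureCounts 1.6.2, from STAR alignments (version not given in the sources used here) to GRCm38.p6 and GENCODE vM17 plus tdTomato. No normalization had been applied. Strand was disregarded, and fragments mapping to several places or genes were left out. Groups and replicate numbers came from the sample labels. Each sample is from a separate mouse.

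Counts were filtered with filterByExpr, scaled by TMM and tested with edgeR 4.0.16 (quasi-likelihood test, genotype as the only term, Benjamini-Hochberg adjustment over all genes, threshold 0.1) in R 4.3.3. DESeq2, the tool named in the study's methods, was an alternative, run here as version 1.42.0. The standard error was taken from the log2 fold change and its F statistic. Shares and ratios were tested with exact permutation tests in SciPy 1.17.1. Coding sequences and transcript lengths came from GENCODE vM21, in which the 5 genes span the same coordinates. As a check of the code only, the edgeR script was run on counts simulated from the mean levels and dispersions of these data. Depth was between 22729292 and 23550433 counts, and limits from counts cover counting error only, since PCR duplicates could not be separated.

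Samples of equal replicate number deviated together from their group means (correlations of 0.304, 0.156 and 0.395 for numbers 1, 2 and 3 over 10583 genes above 10 CPM). Of the 6 pairs with unequal numbers, WT replicate 2 with MUT replicate 1 gave 0.326, above the values of numbers 1 and 2, so the pairing is not certain from the data. The numbers come from the labels, and the study used littermate controls without stating the pairs; the fit with the number as a block was an alternative. Other alternatives were DESeq2 size factors, other filters, a threshold of 0.05, other gene lengths and each sample left out in turn. The shortest principal transcript and DESeq2 with the block were chosen after seeing the data.

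The members and gene lists were chosen with earlier results of these data known. Besides the 5 genes, the text names in each pathway list the gene with the highest level per exon length, that with the lowest unadjusted p and any with an adjusted p under 0.1, the 3 genes nearest to *Hras* in pattern (log2 CPM with a prior count of 2), and marker genes. The short coding stretches of *Nras* are not reported here.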

Additional observations from a re-analysis of the deposited data

How the results depend on the processing

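No call on *Hras*, *Nras*, *Rras*, *Rras2* or *Mras* changed under the 12 alternatives, the replicate block included: none of 60 results passed an adjusted p of 0.1, the smallest being 0.572, and 57 kept their direction. The exceptions came from leaving out a sample, which moved the log2 fold change of *Nras* between -0.039 and 0.088 and that of *Rras* between -0.067 and 0.00067. In the same fits *Hras* lay between 0.081 and 0.20, *Rras2* between 0.040 and 0.12 and *Mras* between -0.27 and -0.080. The number of genes called over the whole table was small and unsteady: it was 2 in edgeR, 5 without a filter (of more genes tested), 0 with at least 10 counts in every sample (479 at an unadjusted p under 0.05), 1 at a threshold of 0.05, 13 with the replicate block, 9 with DESeq2, 55 with DESeq2 and the replicate block, and between 0 and 6 when each sample was left out (0 without MUT replicate 2, with 292 at an unadjusted p under 0.05, and 6 without MUT replicate 3). The cause was not tested. No pathway gene was called with the replicate block or DESeq2. The mean share of *Hras* over the 6 samples was 11.5% per exon length, 17.4% from counts without a length, 13.4% with the longest transcript and 15.9% with the shortest principal transcript, as follows from the lengths. The difference of MUT minus WT in that share was positive under each of these, between 0.937 and 1.12 percentage points, and between 0.692 and 1.22 when each sample was left out. The replicate block cannot move this difference of 0.937 percentage points, because the mean over 3 complete pairs equals the difference of the group means, so only its p could change (0.25, the smallest that 3 pairs allow). *Hras* ranked 4 of the 5 genes under every setting but the shortest principal transcript, where it ranked 3. Exon bases not shared with another gene name gave the same values, since no base was shared. *Mras*, with 148 to 210 counts in a sample, is the member whose change depth limits most.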
